A study of Homo sapiens with 120 samples.

Results

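The snoRNA host genes described here are SNHG5, SNHG1, SNHG6, SNHG8, SNHG12, GAS5 and ZFAS1. They were chosen by name, 7 of the 27118 distinct gene names in the authors' deposited table of FPKM values (fragments per kilobase of transcript, scaled to a common library total). ZFAS1 stands on 2 rows, and the row with the higher mean FPKM was used (579.6 against 397.5 FPKM over all libraries). The names were picked with earlier results of these libraries known, so the p-values printed for them describe the members and are no independent support. The 120 libraries come from CFPAC-1, a human pancreatic ductal adenocarcinoma line, prepared with SMARTer and Nextera XT chemistry. In the gemcitabine experiment, cells on microrafts (small releasable culture elements) were untreated or given saline, 2 nM gemcitabine or 5 nM gemcitabine, and each raft was labelled proliferative or nonproliferative, with 8 libraries per class and arm. The number of cells on these rafts is unknown. In the isolation experiment, untreated cells were taken on microrafts holding 0, 1 or 2 cells (10 libraries each), by Fluidigm C1 microfluidic capture of 0, 1 or 2 cells (5 each) or as bulk RNA of about 10000 cells (4). The 7 water blanks span both experiments: by title each arm of the gemcitabine experiment had 1, and the rest name no arm. Index pairs repeat between arms, so arms cannot have shared a pool, and treatment and pool cannot be told apart. The labels name no pool, so whether both classes of an arm shared one is unknown. The labels name no separate cultures, so each p-value measures the spread between rafts that may come from 1 culture per arm.

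A snoRNA host gene carries small nucleolar RNAs in its introns. When the transcript is spliced, the introns are processed into snoRNAs that guide chemical modification of ribosomal RNA, while the spliced exons form a noncoding RNA that is often broken down by nonsense-mediated decay during translation. Many such genes start transcription in a run of pyrimidines, as ribosomal protein genes do, and GAS5 takes its name from its accumulation in growth-arrested cells. Gemcitabine is a deoxycytidine analog that stalls DNA synthesis and is used against pancreatic cancer.

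The annotated starts of the members are printed to show how alike and how different the sequence around them is. RefSeq promoters (GRCh38.p14, a later build than the hg19 of the expression values) were found for 6 of the 7 members, and 70 bases are given for each, 40 before and 30 after the annotated start, read along the gene. Capitals mark the longest run of C and T that begins with C within 10 bases of the start, and the motif TATATAA where it occurs on the gene's strand.
SNHG5, chr6:85678704-85678773, minus strand: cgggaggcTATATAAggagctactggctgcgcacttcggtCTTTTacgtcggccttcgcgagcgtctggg
SNHG12, chr1:28581844-28581913, minus strand: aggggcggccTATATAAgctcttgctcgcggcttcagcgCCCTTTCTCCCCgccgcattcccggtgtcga
ZFAS1, chr20:49278602-49278671, plus strand: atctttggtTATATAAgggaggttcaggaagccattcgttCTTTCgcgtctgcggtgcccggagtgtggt
SNHG1, chr11:62855856-62855925, minus strand: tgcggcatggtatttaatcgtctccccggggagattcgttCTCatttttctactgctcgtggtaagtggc
SNHG8, chr4:118278722-118278791, plus strand: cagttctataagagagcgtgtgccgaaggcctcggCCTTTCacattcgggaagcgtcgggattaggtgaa
GAS5, chr1:173869016-173869085, minus strand: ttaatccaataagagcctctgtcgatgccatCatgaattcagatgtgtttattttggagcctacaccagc
SNHG5, SNHG12 and ZFAS1 hold TATATAA, beginning 32, 30 and 31 bases before the start. Other noncoding host genes searched in the same way, SNHG3, SNHG7, SNHG10, SNHG11, SNHG17 and DANCR, do not hold it. The motif was searched on both strands of the 250 bases before each start, and on the gene's strand it is in 1.66% of 35116 RefSeq promoters (2.42% on either strand). In ZFAS1 it overlaps its own reverse complement TTATATA. SNHG12 has a run of 12 pyrimidines, a length reached by 2.11% of all promoters, whereas the runs of 5 in SNHG5 and ZFAS1 are matched or exceeded by 33.5%. At the annotated start of GAS5 the longest such run is 1 base. A match describes the letters in this window and nothing about binding. Where transcription of these genes begins in these cells was not measured, and it may differ from the annotated start.

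In bulk CFPAC-1 RNA all 7 members were detected (FPKM of 1 or more) in each of the 4 libraries. GAS5 stood highest, at 442, 214, 253 and 332 FPKM, and SNHG12 lowest, at 12.7, 13.1, 9.81 and 4.64 FPKM. SNHG8, SNHG6, ZFAS1 and SNHG1 had medians between 105.5 and 162.6 FPKM with overlapping ranges, so neighbours in that order did not differ beyond their spread. SNHG5 came next at a median of 60.3 FPKM, its 43.3 to 86.0 FPKM lying below the lowest SNHG1 value of 95.2 FPKM. Together the members made up 0.099% to 0.189% of the summed FPKM of a bulk library. In single cells on rafts they made up 0.041% to 0.117%, and in single cells in C1 captures 0.212% to 0.307%. Every capture of 1 cell thus lay above every raft with 1 cell and every bulk library on this summed measure. Captures of 2 cells had 0.1% to 0.26% and rafts with 2 cells 0.045% to 0.12%, and these ranges overlapped each other and bulk.

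GAS5 took most of this sum in the captures. GAS5 RNA, the spliced product of a gene that carries a cluster of box C/D snoRNAs, was at 867, 996, 895, 1044 and 1119 FPKM in the 5 captures of 1 cell. In rafts with 1 cell it ran from 0 to 211 FPKM with a median of 109.2, and in bulk from 214 to 442 FPKM. No value of the captures overlapped either group. GAS5 was the highest member in 5 of 5 captures, where it took 50.9% to 68.3% of the members' summed FPKM, against 0% to 34.8% in rafts with 1 cell and 23.3% to 36.7% in bulk. In captures of 2 cells it ran from 301 to 919 FPKM, and in rafts with 2 cells from 64.4 to 333 FPKM, where the ranges met. The labels give no cultures within the isolation experiment, each group counts as 1 sample, and these differences were not tested.

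SNHG12, which carries SNORD99 and several box H/ACA snoRNAs, showed the widest contrast between the methods. It was detected in 3 of 10 rafts with 1 cell, the highest at 29.1 FPKM, and in 5 of 5 captures of 1 cell, at 195.6, 96.4, 260.5, 38.2 and 23.3 FPKM. The mean difference, rafts minus captures on the log2(FPKM + 1) scale, was −5.41, with a single raft inside the range of the captures. All 5 captures also lay above the 4 bulk libraries, with a mean log2 difference of 3.05. In rafts with 2 cells it was detected in 6 of 10, up to 39.95 FPKM, and in captures of 2 cells in 5 of 5, from 11.1 to 211 FPKM.

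SNHG5, which carries SNORD50A and SNORD50B, was detected in 7 of 10 rafts with 1 cell and in 5 of 5 captures of 1 cell. The rafts ran from 0 to 116.8 FPKM with a median of 43.6, and the captures from 54.1 to 201.5 FPKM with a median of 99.1, so the ranges overlapped. The 3 rafts without SNHG5 all belong to 1 of the 2 sets that the raft titles form. In that set SNHG5 had a median of 0 FPKM and 4804 to 6127 genes were detected per raft, while in the other set its median was 73.2 FPKM and 7579 to 8461 genes were detected. GAS5 differed in the same way, with medians of 21.5 and 169.6 FPKM in these sets. SNHG1, SNHG6 and SNHG8 were detected in all 10 rafts, whichever the set.

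SNHG1, host of SNORD22 and SNORD25 to SNORD31, and SNHG6, host of SNORD87, differed little between the methods. Their mean log2 differences, rafts minus captures of 1 cell, were −0.11 and 0.04. SNHG8, host of SNORA24, was the one member whose mean was higher in rafts by over 1 log2 unit. It ran from 12.7 to 213.5 FPKM in rafts with 1 cell and from 0 to 99.5 FPKM in captures, a log2 difference of 1.84 with overlapping ranges. Between rafts and captures of 2 cells the SNHG8 difference was −0.39. ZFAS1, which lies antisense to ZNFX1 and carries SNORD12, SNORD12B and SNORD12C, gave a difference of −1.82 with 1 cell. Its second row gave −4.12, with every raft below every capture. The sources used here do not say whether counting used strand, so reads from ZFAS1 and ZNFX1 cannot be told apart where they overlap.

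Over the members, 3 of 7 were lower in rafts than in captures of 1 cell by 2 log2 units or more (SNHG5 at −2.67, SNHG12 and GAS5 at −4.12), and 16.4% of the 10176 genes measured in these groups were. The count rests on the title set: with the rafts of the set that had more genes detected it was 2, with SNHG5 at −0.49, and with the other set it was 4, with SNHG5 at −4.85 and ZFAS1 at −3.08. The share of all genes was not counted within each set, so the counts by set have no background beside them. GAS5 was the one member with every raft below every capture, as 7.52% of genes had. The median of the members was −1.82, and that of all these genes −0.27. With the rafts of the first of these sets the members' median was −0.49, and with the other −3.08. Rafts with 2 cells minus captures of 2 cells gave negative differences for all 7 members, with a median of −0.77 (0.02 over all genes). SNHG12 at −3.39 alone reached −2, as did 1421 of 11528 genes, and the members' ranges overlapped. GAS5 had −1.91, SNHG5 −0.96, ZFAS1 −0.77 (second row −2.43, every raft below every capture), SNHG6 −0.67, SNHG1 −0.54 and SNHG8 −0.39.

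Against bulk, the rafts with 1 cell gave negative differences for all 7 members, with a median of −1.93 (−0.61 over all genes). SNHG12 at −2.36 and GAS5 at −2.41 were lower by 2 log2 units or more, a size reached by 9.74% of genes, and GAS5 did not overlap, as for 2.26% of genes. ZFAS1 had −1.94, SNHG5 −1.93, SNHG6 −1.64, SNHG8 −0.97 and SNHG1 −0.37. In the title set with more genes detected no member reached −2, and in the other SNHG5, SNHG12, GAS5 and ZFAS1 did. Here too the share of all genes was not counted within each set. Captures of 1 cell minus bulk gave a median of −0.11 (−0.29 over all genes). SNHG12 was higher by 2 units or more, as were 11.2% of genes, SNHG8 at −2.82 lower (17.3%), and both SNHG12 and GAS5, at 1.71, lay wholly above bulk (12%). SNHG5 had 0.74, ZFAS1 −0.11, SNHG1 −0.26 and SNHG6 −1.68. Rafts with 2 cells minus rafts with 1 cell gave a median of 0.62 (0.40 over all genes), no member reached 2 units (2.88% of genes did), and all ranges overlapped. GAS5 had 1.46, SNHG12 1.40, SNHG5 1.2, ZFAS1 0.62, SNHG6 −0.22, SNHG8 −0.39 and SNHG1 −1.27. Within the title sets that median was −0.06 and 0.99. In the set with fewer genes detected per raft with 1 cell, SNHG5 was 3.5 and GAS5 2.98 higher in rafts with 2 cells, and SNHG1 had −2.41. In the other set these members had −1.10, −0.06 and −0.13. Captures of 2 cells minus captures of 1 cell gave a median of −0.50 (0.14 over all genes), and all ranges overlapped. No member moved by 2 units or more, while 428 of 10117 genes rose and 136 fell by that much. SNHG8 had 1.84, SNHG6 0.49, ZFAS1 −0.43, SNHG5 −0.50, SNHG12 −0.63, GAS5 −0.75 and SNHG1 −0.84.

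**Figure D1:**
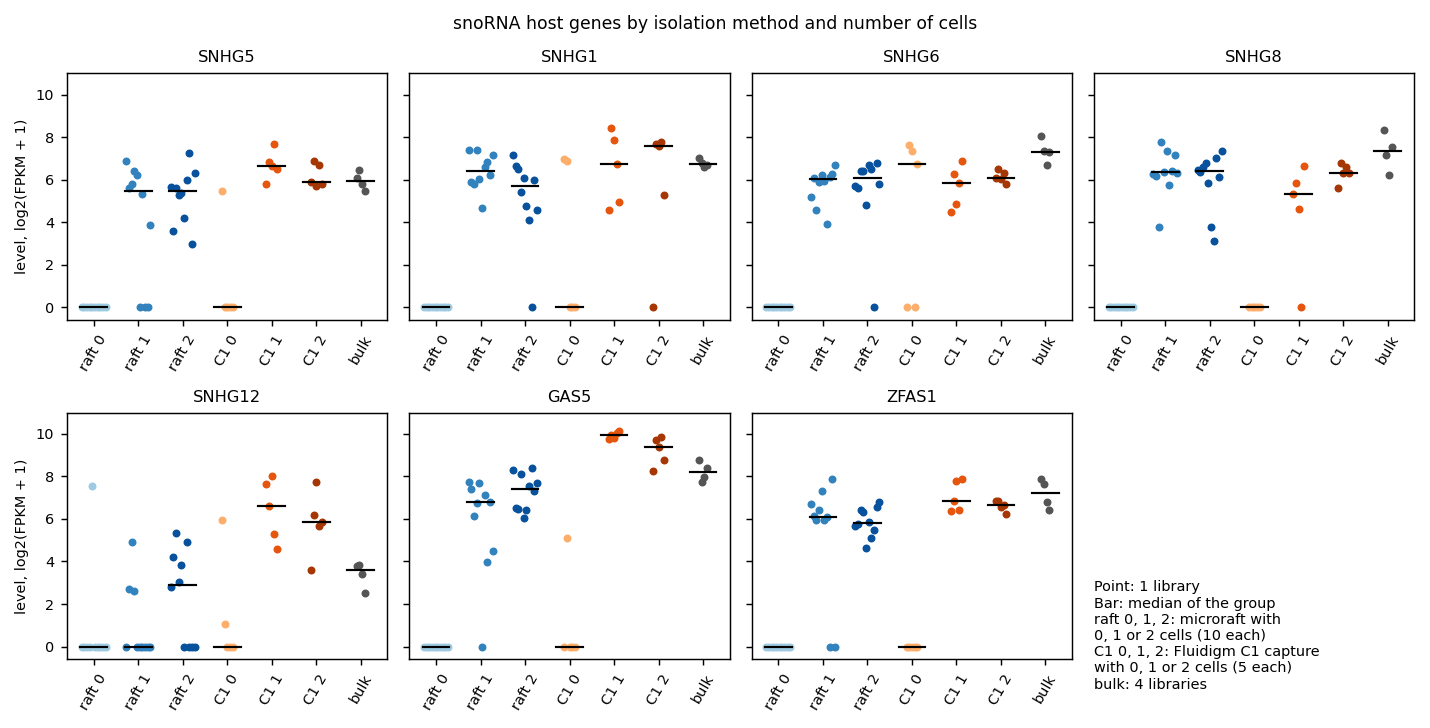
Level of each host gene, log2(FPKM + 1), in rafts with 0, 1 or 2 cells, C1 captures of 0, 1 or 2 cells and bulk; a point is a library and a bar the group's median. GAS5 in the 5 captures of 1 cell sits at 867 to 1119 FPKM, above every raft and bulk library, and SNHG12 is at 0 in 7 of 10 rafts with 1 cell.

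Blanks bear on these levels. All 7 water libraries were at 0 for every member. Of 10 empty rafts, 1 held SNHG12 at 184.2 FPKM, and the rest held no member. Of 5 empty captures, 3 held SNHG6 at 193.9, 159.2 and 106.0 FPKM, values within or above the 21.1 to 115.7 FPKM of captures of 1 cell. SNHG1 was at 123.0 and 116.9 FPKM in 2 empty captures, SNHG12 at 61.6 and 1.11, SNHG5 at 42.8 in 1 and GAS5 at 33.02 in 1. SNHG8 and the ZFAS1 row used were listed at 0 in all of these. The second ZFAS1 row was not, with a mean log2(FPKM + 1) of 1.29 in empty captures. Captures of 1 cell lay wholly above empty captures for SNHG5, GAS5 and ZFAS1 (18.9% of genes), and rafts with 1 cell lay wholly above empty rafts for SNHG1, SNHG6 and SNHG8 (21.7% of genes). Genes detected ran from 865 to 7953 in empty captures and from 9 to 1301 in empty rafts.

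The snoRNAs that the members carry were nearly absent from the table's values. Of the 29 listed, SNORD25, SNORD26, SNORD29, SNORD47, SNORD76, SNORD80, SNORA16A, SNORA44 and SNORA61 had no row, so their levels are unknown. None of the 31 rows of the others reached an FPKM of 1 in bulk or in any of the 64 libraries of the gemcitabine experiment. Captures of 1 cell had 0 to 9 such rows with a median of 3, and rafts with 1 cell 0 to 3 with a median of 0. Empty captures had 0 to 2, with a median of 0. SNORD81, from an intron of GAS5, was at 535.7 and 131.4 FPKM on its rows in 1 empty capture and at 169.7 FPKM in another, above every value of it in captures with cells (20.3 to 71.5 FPKM). Over all 430 snoRNA rows the counts were 26 to 41 in captures of 1 cell, 7 to 13 in rafts with 1 cell, 1 to 17 in empty captures and 11 to 15 in bulk. SNORD99, from an intron of SNHG12, was at 156.4, 267.3 and 386.6 FPKM in 3 captures of 1 cell. In these its host stood at 195.6, 96.4 and 260.5 FPKM, while the 2 captures without SNORD99 had 38.2 and 23.3 FPKM of SNHG12. The 2-cell captures were alike, with SNORD99 at 63.8, 113.3 and 97.3 FPKM where SNHG12 was at 72.1, 211.4 and 56.5, and at 0 where SNHG12 was at 11.1 and 49.5. Whether these reads come from the snoRNA or from unspliced host RNA was not tested.

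Across the 34 isolation libraries that held cells, the members did not vary as one group. Spearman rho between pairs ran from −0.289 (SNHG8 and SNHG12) to 0.689 (SNHG5 and GAS5). Of the 8511 genes detected in at least 17 of these libraries, those closest to SNHG12 were MDM4, an inhibitor of p53 (rho 0.892), CALR, a chaperone of the endoplasmic reticulum (0.846), and LOC100131564 (0.838). GAS5 was closest to MTRNR2L1 (0.83) and MTRNR2L10 (0.825), nuclear copies of mitochondrial ribosomal RNA sequence whose reads may be shared among copies, and to AK125759 (0.821). ZFAS1 was closest to ATP5G2 (0.791), a subunit of ATP synthase, and to the ribosomal protein genes RPL11 (0.756) and RPL19 (0.727). The closest gene to SNHG5 was USP54 at 0.743, to SNHG6 PNRC2 at 0.683, to SNHG8 RPL9 at 0.625 and to SNHG1 SSFA2 at 0.623. The libraries share isolation method and depth, which enter these values, and they are given as a description.

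In the gemcitabine experiment SNHG5 was high in proliferative rafts under the drug. At 5 nM the 8 proliferative rafts had a lowest value of 0, a median of 124.5 and a highest of 1768 FPKM, against 0, 0 and 14.6 FPKM in the 8 nonproliferative rafts. At 2 nM the proliferative rafts had 0, 34.5 and 184 FPKM and the nonproliferative rafts 0, 0 and 22.1 FPKM. Each of the 6 proliferative rafts with SNHG5 at 5 nM exceeded every nonproliferative raft of that arm, and in both arms 2 proliferative rafts were at 0, so the groups overlapped there. With saline the proliferative rafts had 0, 6.24 and 45.6 FPKM and the nonproliferative rafts 0, 0 and 19.2 FPKM. Without treatment the proliferative rafts had 0, 0 and 13.2 FPKM and the nonproliferative rafts 0, 0 and 225.5 FPKM. SNHG5 was detected in 1 raft of each class in the untreated arm.

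Tests used limma on log2(FPKM + 1), in 52 of the 64 libraries with at least 1000 genes and in 11560 genes detected in at least 8 of them, with Benjamini-Hochberg adjustment over all genes. All 7 members passed this filter, SNHG12 with 10 libraries and the others with 23 to 28. In the gemcitabine arms, SNHG5 rose in proliferative rafts by 4.88 ± 0.97 (SE) log2 units relative to nonproliferative rafts (limma, adjusted p = 0.0108), and it was detected in 12 of 14 and in 4 of 14 rafts. It had the smallest p of all genes tested in this contrast. Of the 11560 genes, 13 passed, all higher (0.112%), and SNHG5 was the single member among them. The other 12 were KRT86 (5.37), PRSS3 (5.30), TAGLN2 (6.25), TAF10 (4.73), GTPBP4 (4.82), EIF5A (5.48), FUOM (4.58), TNFRSF12A (6.02), AL049948 (4.24), MEA1 (5.78), HMGA1 (5.72) and RAB5C (4.71 log2 units). In libraries whose gene levels followed bulk with a Spearman rho of 0.25 or more 6 of 10083 passed, without SNHG5.

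In the arms without gemcitabine, SNHG5 was detected in 6 of 12 proliferative rafts and in 4 of 12 nonproliferative rafts. The difference was 0.15 ± 1.06 (SE) log2 units (limma, adjusted p = 0.954). No gene passed adjustment in this contrast by limma (0.0% of 11560), and 1898 had an unadjusted p under 0.05. With quantile normalization 1 gene passed there, and in libraries with a rho with bulk of 0.25 or more 39 of 10083 did. The difference between these contrasts, with minus without gemcitabine, was 4.73 ± 1.44 (SE) for SNHG5, the smallest p of all genes (limma, unadjusted p = 0.0013), and its adjusted p was 1.0. No gene passed there (0.0%), and 225 had an unadjusted p under 0.05, so a dependence of the SNHG5 class difference on gemcitabine did not pass the test. By arm, SNHG5 differed between the classes by 6.41 ± 1.37 at 5 nM (limma, adjusted p = 0.0749), 3.34 ± 1.37 at 2 nM (0.361), 1.10 ± 1.37 with saline (0.743) and −0.80 ± 1.62 without treatment (0.948), none of which passed. No other member passed in any arm. At 5 nM ZFAS1 had 4.0, SNHG12 2.18, SNHG8 1.66, SNHG1 0.83, GAS5 0.63 and SNHG6 0.60. At 2 nM SNHG6 had 3.36, GAS5 3.11, SNHG8 2.15, SNHG12 1.33, SNHG1 1.06 and ZFAS1 0.64. With saline GAS5 had 3.02, ZFAS1 2.39, SNHG1 2.32, SNHG6 1.52, SNHG8 1.30 and SNHG12 −1.04. Without treatment SNHG6 had 2.84, GAS5 1.12, SNHG1 0.29, ZFAS1 0.19 and SNHG8 −0.19, and SNHG12 was listed at 0 in both classes. At 2 nM 2 of all genes passed (0.0173%), and in the other 3 arms none did (0.0%).

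Averaged over the 4 arms, SNHG5 rose in proliferative rafts by 2.51 ± 0.72 (SE) log2 units (limma, adjusted p = 0.0161), and was the 1 member of 7 that passed. Of all genes, 1313 passed as higher (11.4%) and 87 as lower (0.753%), so 1 of 7 members is near the background. That background depends on the processing: 1400 genes passed in all, against 733 with quantile normalization, 641 in all 64 libraries, 225 with genes detected as a covariate, 94 of 10083 in libraries that followed bulk and 1 of 10627 in an additive fit of libraries with at least 3000 genes. The proliferative libraries tested had a median of 6022 genes detected and the nonproliferative ones 2799.5. With genes detected as a covariate the average fell to 2.10 (limma, adjusted p = 0.0752) and did not pass, while in the gemcitabine arms SNHG5 was 4.41 higher (adjusted p = 0.0253). Among proliferative libraries 22 of 32, and among nonproliferative libraries 12 of 32, had gene levels that followed bulk with a Spearman rho of 0.25 or more. In these, SNHG5 averaged 1.34 higher over the arms (adjusted p = 0.52) and 4.15 higher with gemcitabine (adjusted p = 0.215), and neither passed. With gemcitabine, the proliferative libraries of this kind had 17.7 to 1070 FPKM, detected in 11 of 11 with a median of 110 FPKM. The nonproliferative ones had 0 to 22.1 FPKM, detected in 4 of 6, with a median of 10 FPKM.

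**Figure D2:**
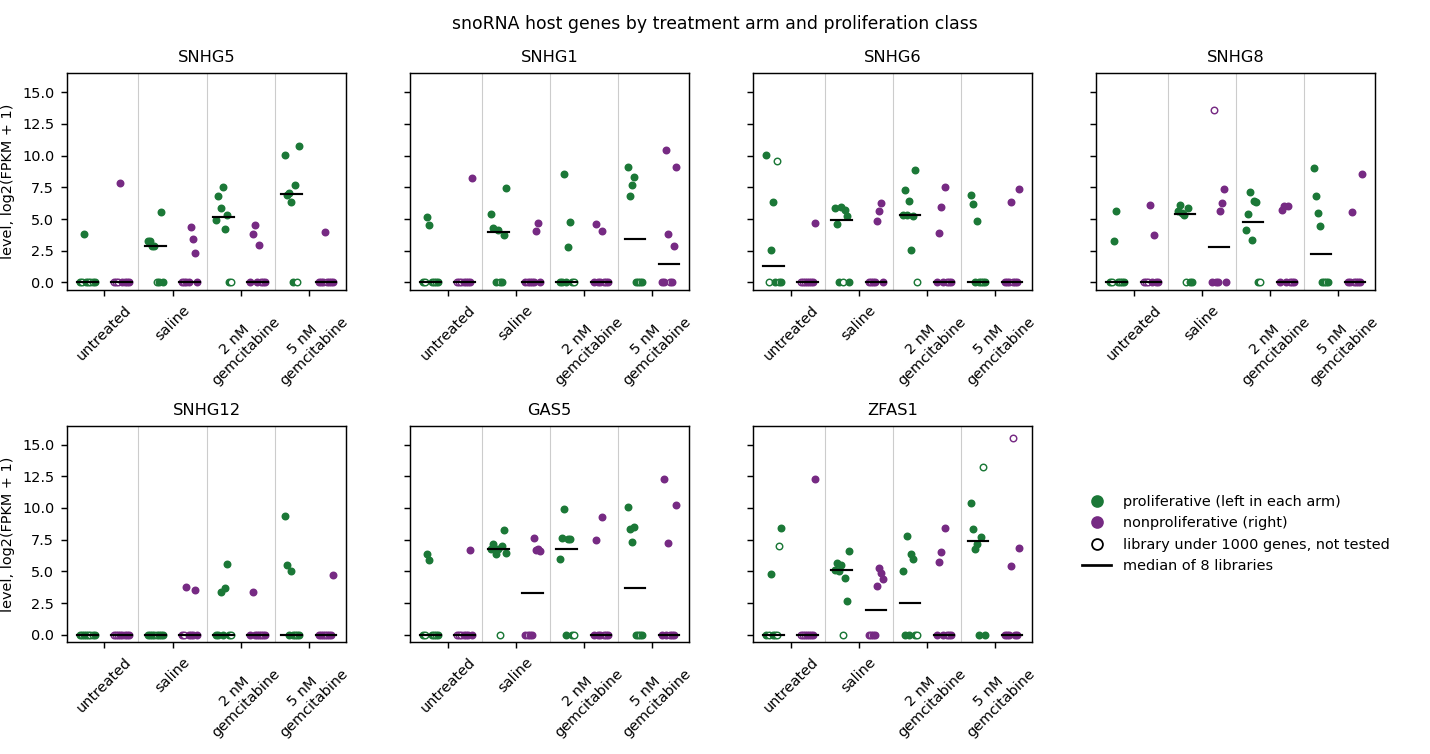
Level of each host gene, log2(FPKM + 1), by arm in order of dose, with proliferative rafts left of nonproliferative rafts; a point is a library, open where under 1000 genes were detected, and a bar the median of 8. SNHG5 is at 124.5 FPKM in the median proliferative raft at 5 nM and at 0 in the median nonproliferative raft.

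**Figure D3:**
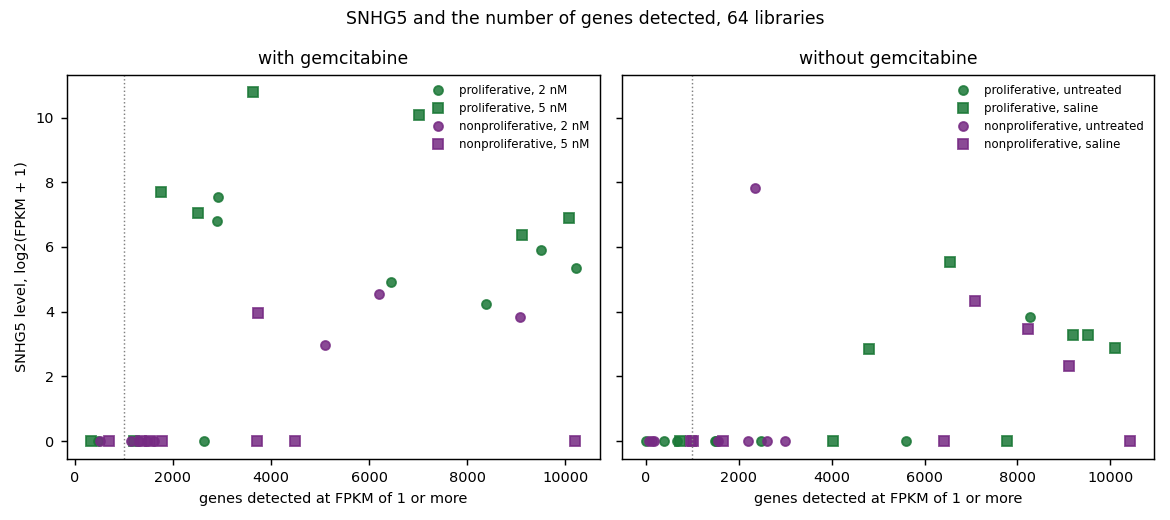
SNHG5 level, log2(FPKM + 1), against the number of genes detected in each of the 64 libraries, with gemcitabine on the left and without on the right; the dotted line is at 1000 genes. With gemcitabine the nonproliferative libraries do not exceed 22.1 FPKM at any number of genes, though the one with 10198 genes did not follow bulk (Spearman rho −0.023). The 12 proliferative libraries that hold SNHG5 with gemcitabine span 1759 to 10206 genes.

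SNHG12 passed the filter with 10 libraries, 6 of them proliferative rafts with gemcitabine, so it was testable through the group where it was high, and its differences are given as values that support nothing. It was listed at 0 in all 12 proliferative rafts tested without gemcitabine, among them rafts with up to 10099 genes detected, and was detected in 2 of 12 nonproliferative rafts there, at 12.42 and 10.85 FPKM. With gemcitabine it was detected in 6 of 14 proliferative rafts, at 9.51 to 661 FPKM, and in 2 of 14 nonproliferative rafts, at 9.19 and 24.7 FPKM. The class difference was 1.75 ± 0.65 (SE) with gemcitabine (limma, adjusted p = 0.151) and −0.52 ± 0.71 without (0.741). The difference of the 2 was 2.27 ± 0.96 (adjusted p = 1.0), and none passed. For the remaining members that difference, with minus without gemcitabine, was 1.35 for SNHG8, 1.03 for ZFAS1, −0.20 for GAS5, −0.20 for SNHG6 and −0.36 for SNHG1, all at an adjusted p of 1.0.

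For the other members the class differences had positive averages and did not pass. SNHG6 had 2.08 ± 0.81 (SE, limma, adjusted p = 0.069), GAS5 1.97 ± 0.97 (0.15), ZFAS1 1.81 ± 0.88 (0.144), SNHG8 1.23 ± 0.81 (0.286), SNHG1 1.13 ± 0.80 (0.319) and SNHG12 0.62 ± 0.48 (0.373). The members' median was 1.81, beside 0.58 for all genes, of which 8704 of 11560 were positive. In libraries with a rho of at least 0.25, SNHG8 turned to −0.40. GAS5 had 1.87 ± 1.31 with gemcitabine and 2.07 ± 1.44 without, and SNHG6 had 1.98 ± 1.09 and 2.18 ± 1.19. ZFAS1 gave 2.32 ± 1.19 and 1.29 ± 1.30, SNHG8 1.90 ± 1.10 and 0.56 ± 1.2, and SNHG1 0.95 ± 1.07 and 1.31 ± 1.18. None of these passed, and the smallest adjusted p among them was 0.282 for ZFAS1 with gemcitabine. In libraries with a rho of at least 0.25, SNHG6 had −0.72 with gemcitabine and 2.23 without, GAS5 0.91 and −0.11, SNHG1 −0.79 and 1.91, SNHG8 −0.01 and −0.79, and ZFAS1 0.64 and 1.87, and none passed.

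Members were found mostly in the libraries with more genes detected, in both classes. Of proliferative libraries with gemcitabine, GAS5 was detected in 9 of 14, which had 2506 to 10206 genes, and the libraries without it had 1200 to 3624 genes. Of nonproliferative libraries with gemcitabine it was detected in 5 of 14, with a median of 3737 genes against 1604 where it was absent. SNHG5 in nonproliferative libraries with gemcitabine was likewise found at a median of 5649 genes and missing at a median of 1572. A library of 10198 genes had none, and its gene levels did not follow bulk (Spearman rho −0.023). With GAS5 detected in 7 of 8 proliferative rafts given saline, at a median of 109.4 FPKM, and in 4 of 8 nonproliferative ones, at a median of 47.3, those classes overlapped from 0 to 201 FPKM. Fewer cells and less RNA per cell on a raft cannot be told apart in these libraries.

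**Figure D4:**
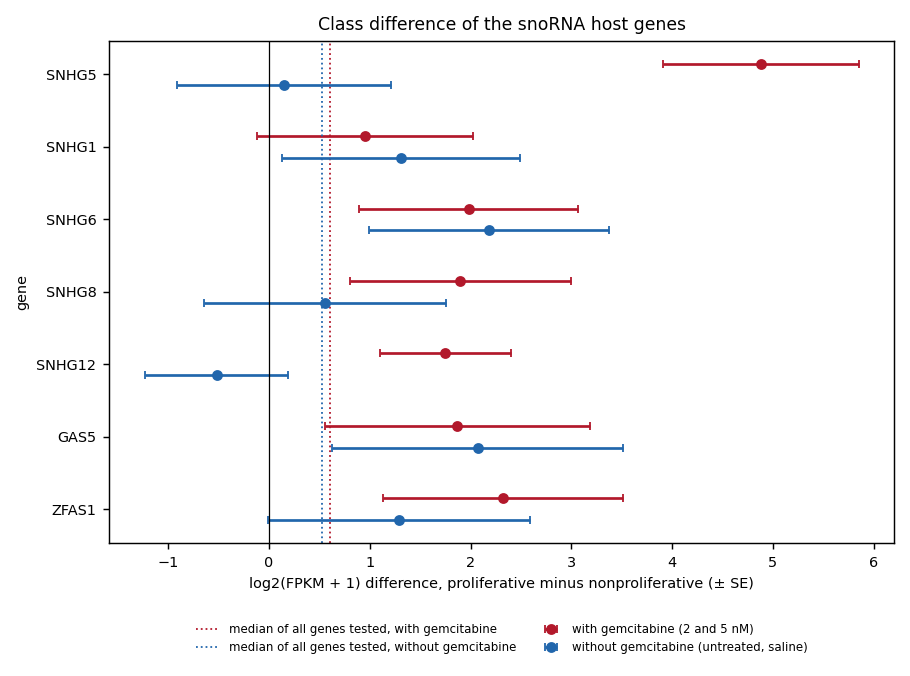
Difference between proliferative and nonproliferative rafts in log2(FPKM + 1), with its SE, for each host gene, with gemcitabine above and without below; dotted lines mark the median of all genes tested, 0.61 and 0.53. SNHG5 with gemcitabine stands at 4.88, and without it at 0.15.

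In the contrast of 5 nM gemcitabine with saline, averaged over both classes, no member passed (4.64% of all genes passed, 9 higher and 527 lower). SNHG5 had 1.78 ± 0.97 (SE, limma, adjusted p = 0.227), detected in 7 of 14 and in 8 of 14 libraries, SNHG1 had 1.75 ± 1.07 (0.286) and SNHG12 1.24 ± 0.65 (0.21). The other 4 were negative, with SNHG6 at −0.90 ± 1.09, GAS5 at −0.89 ± 1.31, SNHG8 at −0.56 ± 1.10 and ZFAS1 at −0.05 ± 1.19. Under some alternatives each of these 4 changed sign. The members' median was −0.05 and that of all genes −0.76. Treatment and pool cannot be told apart in this contrast.

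Other host genes and the machinery that serves them were counted in the class contrast averaged over arms. Of 26 coding snoRNA host genes tested (34 listed), 15 rose in proliferative rafts and none fell, with a median of 3.15 log2 units. NCL, which encodes nucleolin, rose by 4.05 ± 0.89 (SE, limma, adjusted p = 0.00273), and the ribosomal protein genes RPS3, RPL32 and RPSA by 4.40, 3.72 and 3.75. Of 10 other noncoding host genes tested (17 listed), C6orf48 rose by 3.03 ± 0.93 (adjusted p = 0.0239). The other 9 did not pass, among them DANCR at 2.04, SNHG7 at 1.33 and SNHG9 at 1.32, and the median was 1.33. Of 16 genes for snoRNP proteins and assembly factors 5 rose and none fell, with a median of 2.08, among them RUVBL2 of the assembly machinery (3.98), the pseudouridine synthase DKC1 (2.54), the methyltransferase FBL (2.58) and NOP56 (2.65). Of 15 nonsense-mediated decay factors, MAGOH of the exon junction complex rose by 2.21 (adjusted p = 0.0486), and EIF4A3 at 2.40, CASC3 at 1.21 and SMG5 at 0.99 did not pass. All of these counts stand beside the 11.4% of all genes that rose and the gap in genes detected between the classes (medians of 6022 and 2799.5). With genes detected as a covariate 2 of 26 coding host genes, 1 of 16 snoRNP genes and no other noncoding host gene or decay factor rose, beside 1.86% of all genes. In libraries with a rho of at least 0.25 these counts were 1 of 26 coding host genes and 0 of the other lists, beside 0.714% of all genes.

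Of 10 proliferation markers, 6 rose with the proliferative label (1 with genes detected as a covariate and 0 in libraries with a rho of at least 0.25), among them CCNB1 (3.61), AURKA (2.60), PCNA (3.29) and CDK1 (2.69), with a median of 2.25. In the gemcitabine arms alone none of the 10 passed, at a median of 1.78, and 13 of all 11560 genes did (0.112%), at a median of 0.61. All 10 were positive there, as were 8739 of all genes. By limma 5 of the 10 had an unadjusted p under 0.05, as had 2075 of all genes. Of the genes beside members in the genome, ZNFX1 (1.05 ± 0.63, adjusted p = 0.235) and SLC3A2, beside SNHG1 (0.69 ± 0.97, adjusted p = 0.632), did not pass, and ZBTB37, beside GAS5, was not tested. Summed levels of 8 epithelial and ductal markers in the tested libraries had a median of 3644 FPKM in proliferative rafts, with a range of 0 to 19630, and of 998.6 FPKM in nonproliferative rafts, with a range of 0 to 3250. CFTR was at 0 in both classes and in bulk. Of 5 fibroblast markers, COL1A2, DCN, LUM and THY1 were at 0 in all proliferative libraries tested, and the list summed to at most 1.6 FPKM there and to at most 112.6 FPKM in nonproliferative ones. Blood markers summed to a median of 30.9 FPKM in proliferative and 16.6 FPKM in nonproliferative libraries, endothelial markers to 0 in both, and keratinocyte markers to 247.7 and 112.5 FPKM. In the gemcitabine arms, where SNHG5 passed, the blood markers summed to a median of 115.6 FPKM in proliferative and 5.6 FPKM in nonproliferative libraries, the keratinocyte markers to 247.7 and 25.8 FPKM, and the epithelial markers to 4098 and 1191 FPKM. Fibroblast and endothelial markers had medians of 0 in both classes there. Bulk CFPAC-1 itself had a median keratinocyte sum of 289.4 FPKM, where KRT10 had a median of 142.0 and DMKN of 138.4. KRT1, KRT5 and KRT14 were at 0 in bulk, and KRT14 was at 0 in every library tested. The blood sum in bulk had a median of 25.5 FPKM, where CD68 had a median of 24.9 and PTPRC, CD3E and HBB were at 0. The part of these markers in the SNHG5 difference was not tested.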

How the data were processed

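Per the submitters' processing notes, RSEM was run against hg19. The authors deposited the result as FPKM in 1 table of 30504 rows and 120 libraries. The file header names no unit, and FPKM was read from the kind of values. The table holds no counts, so depth is unknown and precision was read from the number of genes detected (FPKM of 1 or more). Gene annotation and versions are not given in the sources used here. The members and gene lists were chosen with earlier results of these data known. Tests were made with limma 3.58.1 in R 4.3.3 on log2(FPKM + 1) (limma-trend, 1 mean per class and arm, two-sided, threshold 0.05), which was checked on simulated data. A fold on this scale understates the change of low genes. Isolation groups count as 1 sample each and got no test; genes detected in at least 5 libraries of the 2 groups were compared. All 7 members are named in every comparison of classes, of arms or of isolation groups that held cells, and from each other list the 4 genes with the smallest p in the averaged class contrast, or all of a list of up to 3 genes. Likeness names the 3 genes of highest Spearman rho, of which those given are a selection. Tables were made with Python 3.11.15 and pandas 2.3.3. Promoters are RefSeq's, build GRCh38.p14. Alternatives were pseudocounts of 0.1 and 10, no filter, all 64 libraries, 3000 genes, rho with bulk of 0.25, quantile normalization, TPM computed from FPKM, genes detected as a covariate, leaving out each library, and, chosen after seeing the data, additive class and arm fits and the other ZFAS1 row.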

Additional observations from a re-analysis of the deposited data

Results flagged for a closer look

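Dixon's test was run on 94 sets of values (a member in a group of 4 to 10 libraries, on the log2(FPKM + 1) scale). It flagged a library far from the others in 19. A set with a single library above 0 is flagged whatever that value is, so the count cannot be set against a chance rate. In 12 of the 19 the flagged library was the single one above 0. Untreated nonproliferative rafts gave 5 of these 12: SNHG5 at 225.5 FPKM in a raft with 2353 genes detected, GAS5 at 102.8 FPKM in another, and SNHG1 at 306.3, SNHG6 at 25.4 and ZFAS1 at 4954 FPKM all in the same raft with 2993 genes. SNHG5 was also the single value in an untreated proliferative raft (13.2 FPKM), in a nonproliferative raft at 5 nM (14.6) and in an empty capture (42.8). SNHG12 was so in an empty raft (184.2), in a nonproliferative raft at 2 nM (9.19) and in one at 5 nM (24.7), and GAS5 in an empty capture (33.02). In the empty capture with 5501 genes detected SNHG12 stood at 61.6 FPKM, the next at 1.11. ZFAS1 reached 47772 FPKM in a nonproliferative raft at 5 nM with 688 genes detected, which was not tested, the next raft being at 116.2. Low values were flagged for GAS5 in a raft with 1 cell (0 FPKM, 5609 genes), for SNHG8 in another (12.7 FPKM, 7655 genes), for SNHG1 and SNHG6 in the same raft with 2 cells (both 0 FPKM, 6416 genes), and for GAS5 in a proliferative raft given saline (0 FPKM, 735 genes).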

How the results depend on the processing

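No paired analysis was possible because replicate numbers of the class and arm groups are accession order only and pair no rafts. The number of members passing in the class contrast averaged over arms was 1, and it was 2 with a pseudocount of 0.1 (SNHG6 joined, at 3.22), 0 with genes detected as a covariate, 0 in libraries with rho of at least 0.25, and 0 in additive fits with at least 3000 genes or with that rho. Of all genes in that contrast, 1587 of 11560 passed with a pseudocount of 0.1 and 3 of 10083 in the additive fit with that rho. With gemcitabine the number of members passing was 1, and 0 with all 64 libraries (SNHG5 at 4.27, limma, adjusted p = 0.0523), with rho of at least 0.25 and in both of those additive fits (4.67 and 4.08). No gene at all passed with all 64 libraries (0 of 11643) or in those additive fits (0 of 10627 and 0 of 10083). With rho of at least 0.25, 6 of 10083 genes did. For 5 nM minus saline the number of members passing was 0, and 1 with rho of at least 0.25 (SNHG1), where 607 of 10083 genes passed. The cause was not tested. A fit of group means with at least 3000 genes was not run, since no untreated nonproliferative raft reached that. Leaving out each of the 52 libraries gave 1 to 2 members averaged over arms and 1 with gemcitabine, with SNHG5 at 2.32 to 2.90 and 4.56 to 5.46, passing each time. Genes passing in the average ran from 780 (without untreated proliferative replicate 3) to 2067 (without 2 nM nonproliferative replicate 2), and with gemcitabine from 2 (without 2 nM nonproliferative replicate 1) to 218 (without 5 nM proliferative replicate 5). Quantile normalization took the median of all genes in the average from 0.58 to −0.02, with SNHG5 at 1.65. Values that did not pass and changed sign were SNHG8 in the average (−0.40 with rho of at least 0.25, −0.40 additive). Without gemcitabine they were SNHG5 (−0.15 with a pseudocount of 10, −0.32 quantile, −0.20 covariate, −1.47 rho, −1.01 additive with rho), SNHG8 (−0.34 all libraries, −0.71 quantile, −0.22 covariate, −0.79 rho, −0.78 additive with rho) and GAS5 (−0.11 rho, −0.06 additive with rho). With gemcitabine they were SNHG1 (−0.10 covariate, −0.79 rho, −0.77 additive with rho), SNHG6 (−0.72 and −0.71) and SNHG8 (−0.01 and −0.02). In the difference with minus without gemcitabine they were SNHG1 (0.21 with a pseudocount of 10, 0.62 quantile), SNHG6 (0.25 quantile), GAS5 (0.36 quantile, 0.81 additive with at least 3000 genes, 0.97 additive with rho, 1.02 rho) and ZFAS1 (−0.89 additive with rho, −1.23 rho). In 5 nM minus saline they were ZFAS1 (0.59 with a pseudocount of 10, 1.75 all libraries, 1.32 quantile, 1.18 covariate, 1.29 rho, 0.24 on the other row), SNHG8 (0.23 quantile, 0.84 covariate, 0.48 rho), GAS5 (0.05 quantile, 0.50 covariate) and SNHG6 (0.01 quantile, 0.02 rho). Over single libraries left out, the difference with minus without gemcitabine ran from −1.19 to 0.20 for SNHG1, −0.67 to 0.59 for SNHG6, −0.87 to 0.47 for GAS5 and −0.19 to 1.75 for ZFAS1, and ZFAS1 in 5 nM minus saline from −0.48 to 0.43. SNHG5 without gemcitabine ran from −0.23 to 0.93 over single libraries left out. The members' medians in the isolation comparisons moved by less than the spread between single libraries under every alternative run. That limit is wide: by title set, rafts minus captures of 1 cell had −0.49 and −3.08, both within it. Rafts with 2 cells minus rafts with 1 cell changed sign in a title set (−0.06). The median of captures of 1 cell minus bulk changed sign with TPM (0.14) and quantile normalization (0.10), and ran from −0.30 to 0.23 over single libraries left out. No alternative was run for captures of 2 cells against rafts with 2 cells or against captures of 1 cell.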
